A study of Caenorhabditis elegans with 12 samples.

Results

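The genes described here are the nuclear genes for subunits and dedicated assembly factors of the mitochondrial respiratory chain and ATP synthase of Caenorhabditis elegans. They were taken from the count table by the symbol that each sequence name carries in the WBcel235 annotation (Ensembl release 115). Symbols starting with nuo-, nduf-, sdha-, sdhb-, sdhc-, sdhd-, ucr-, cox- or asg- were taken, atp- followed by a number, and further single genes, among them lpd-5, mev-1, isp-1, cyc-1, cyc-2.1, clk-1 and hpo-18. This rule named 50 of the 27928 table rows, and cox-16 was not analysed here. The 13 rows on chromosome III held 0 counts in all 12 libraries and were left out, so 37 genes with counts remained. They comprised 11 genes of complex I, 4 of complex II, 5 of complex III, 1 of cytochrome c, 4 subunits and 5 assembly factors of complex IV, and 7 of the ATP synthase.

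The libraries came from pools of wild-type (N2) worms, 6 pools kept on vitamin D and 6 on its vehicle, dimethyl sulfoxide (DMSO), for 44 h at 20 °C. No group carried a mutation or transgene. The dose is 100 µM in the series text and 100 mM in the protocol, the pool 50 or 40 worms, and treatment starts at the L4 larval stage or at 1 day of age. The series text calls the pools independent biological replicates, and all p-values below measure the spread between such pools. Some libraries were much closer to each other than others, such as vehicle libraries 5 and 6 or 2 and 3. The p-values treat all libraries as independent, which was not tested. RNA of many cells was pooled, so fewer cells of a type and less RNA per cell cannot be told apart.

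The respiratory chain passes electrons from food molecules to oxygen and pumps protons across the inner mitochondrial membrane. Complex I takes electrons from NADH and complex II from succinate, and ubiquinone carries them to complex III. Cytochrome c, a small soluble protein, carries them on to complex IV, which reduces oxygen, and the ATP synthase uses the proton gradient to make ATP. Most subunits are coded in the nucleus and a few core ones in the mitochondrial genome. In the worm, mutation or RNA interference of genes such as isp-1, nuo-6, clk-1, cyc-1, cox-5B (also called cco-1) and atp-3 is known to slow development and lengthen life, whereas mev-1 mutants are short-lived.

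The rows without any count include nuo-4 and nduf-9 of complex I, mev-1 of complex II, ucr-1 and ucr-2.3 of complex III, and cox-5A, cox-6A and cox-6B of complex IV. They also include the assembly factors cox-14 and cox-17, the ATP synthase beta subunit atp-2, and clk-1, an enzyme of ubiquinone synthesis. All 2800 table rows on chromosome III were listed at 0, so these genes gave no measurement. The 24 rows of the mitochondrial genome were also listed at 0 and held no protein-coding gene, and levels of the mitochondrially coded subunits were not analysed here.

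Library totals ran from 31383203 to 38720736 counts with vitamin D and from 30203731 to 35230983 with vehicle, and the lowest count of a member in any library was 527. All 37 members were among the 13460 genes that passed the filter on low counts and were tested. Libraries of a treatment were not alike. A sperm score, the median log2 deviation of 24 tested rows of a sperm marker list (23 markers, with ssp-9 on a pair of rows) from their means, was -0.46 to 0.60 in vitamin D libraries. It was -1.47 and -1.71 in vehicle libraries 2 and 3, and the other vehicle libraries lay at 0.82 to 1.29. A short-gene score, the same median over 980 tested genes with under 500 bases of exon and outside the set, was -0.22 to -0.08 in vitamin D libraries and 0.06 to 0.37 in vehicle libraries.

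The genes for 6 subunits or assembly factors fell with vitamin D, and no member rose. The small complex III subunit gene ucr-11 and the ATP synthase epsilon subunit gene hpo-18 fell the most, to 0.528 and 0.553 of their vehicle levels. The assembly factor gene cox-19 fell to 0.716, and asg-1, nduf-5 and nuo-6 to 0.779, 0.802 and 0.793. The other 31 members did not pass the threshold, an adjusted p under 0.05 in edgeR's quasi-likelihood test over all tested genes. The calls were 6 of 37 members lower and 0 of 37 higher, against 1.90% and 1.75% of all tested genes, or 3.66% in either direction. These are not like sets. Median exon length was 945 bases for members and 1339 for all tested genes. The median coefficient of variation was 4.57% against 15.2% with vitamin D and 11.3% against 20.1% with vehicle, so a change of a given size is more easily called in a member.

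**Figure D1:**
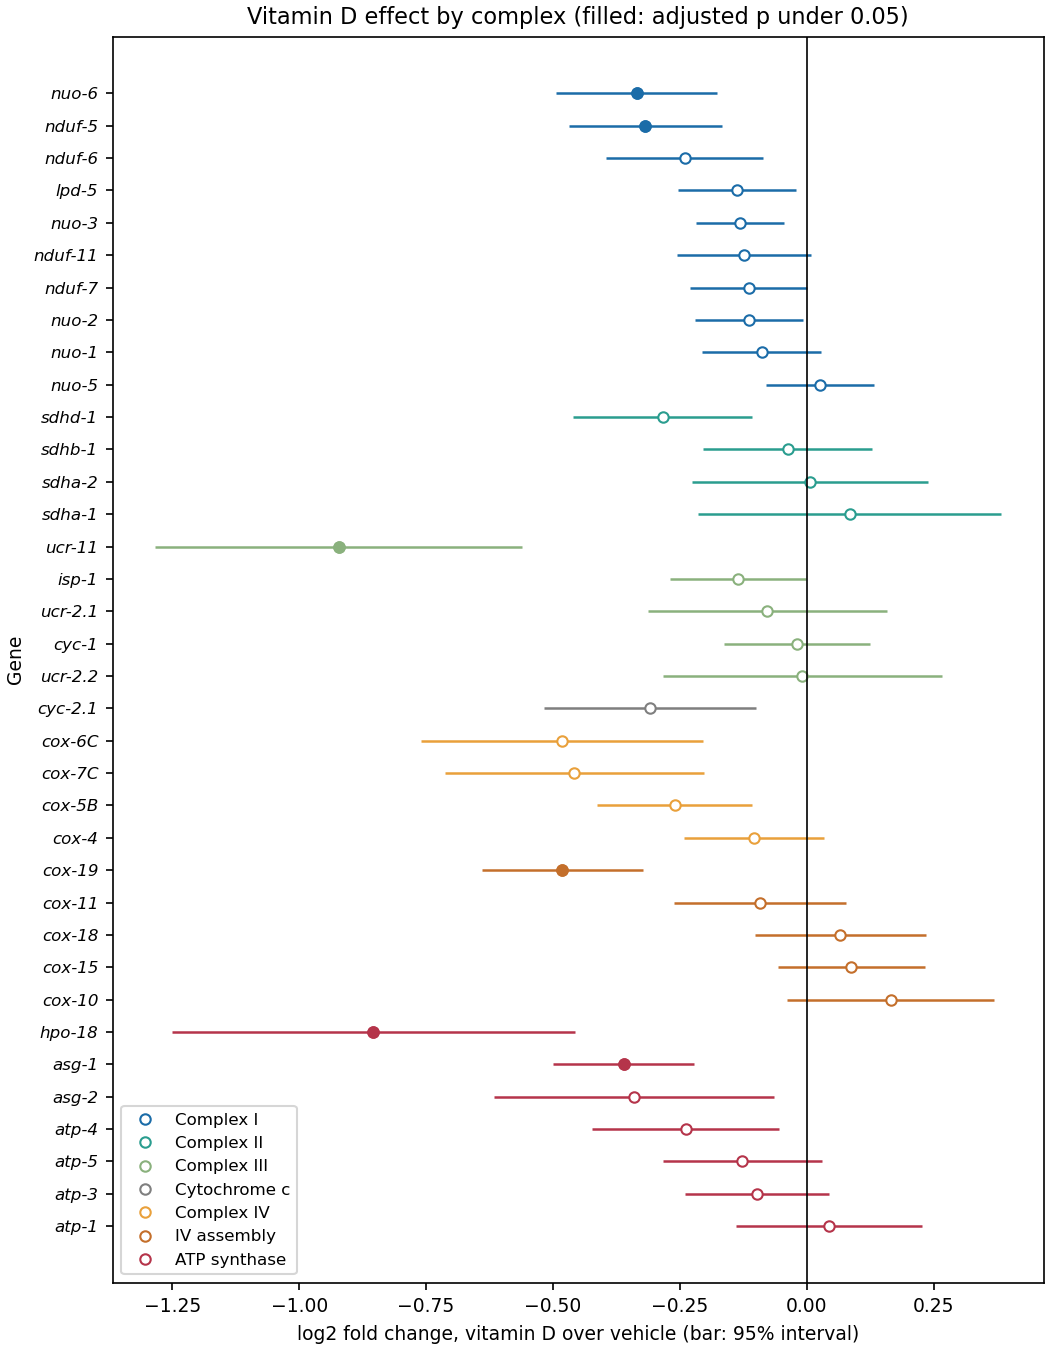
Log2 fold change of vitamin D over vehicle for 36 of the 37 genes (points) with 95% intervals (bars), coloured by complex; filled points passed an adjusted p under 0.05. The 6 filled points lie left of 0, from ucr-11 at -0.92 to nduf-5 at -0.32, and 29 of 36 points are negative.

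The same 6 genes were the members whose vitamin D libraries all lay below their vehicle libraries, a pattern shown by 1.92% of all tested genes in that direction. No member had all vitamin D libraries above vehicle, which 1.98% of all tested genes did, and 3.90% were apart in either direction. Of the 37 members, 30 had a negative log2 fold change, against 50.5% of all tested genes, and 18 had an unadjusted p under 0.05 in the lower direction, against 8.23%, with 0 in the higher direction, against 8.46%. The median log2 fold change was -0.12 for the members and -0.0029 for all tested genes. Scaled to total counts alone, 8 members were lower and 0 higher, while all genes moved to 507 higher and 223 lower, against 236 higher and 256 lower with TMM factors. Of the 6 lower genes 5 have under 500 bases of exon, and the short-gene score, at -0.22 to -0.08 in vitamin D libraries and 0.06 to 0.37 in vehicle libraries, did not overlap between the groups either. Once a trend of the counts on exon length was removed, 0 of 37 members passed, beside 0.468% of 13460 tested genes lower and 189 genes higher. At such shares 37 genes would hold few calls. With the sperm score as a covariate 22 members were lower and 0 higher, beside 5.69% of all tested genes lower.

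**Figure D2:**
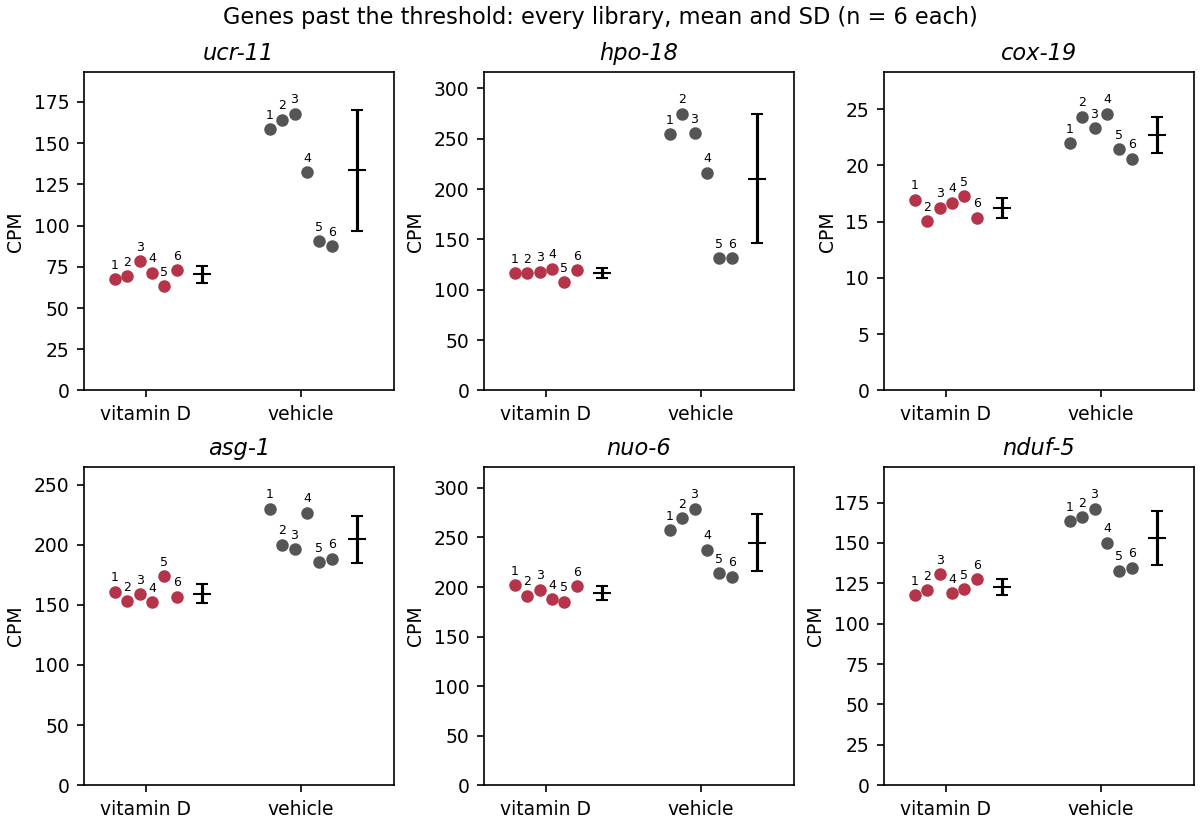
CPM of the 6 genes that passed the threshold in each of 6 vitamin D libraries (red, left) and 6 vehicle libraries (grey, right), numbered by replicate, with mean and SD in black. For each gene the red points lie below all grey points, and in ucr-11 and hpo-18 vehicle libraries 5 and 6 sit nearest to them.

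Complex I, which oxidises NADH, had 2 of 11 genes lower, 0 higher and 9 that did not pass, with a median log2 fold change of -0.12. Of all tested genes 1.90% were lower and 1.75% higher. At these shares each complex would hold few calls or none, and differences in calls between complexes were not tested. The gene nuo-6 (W01A8.4; I, 7068116 to 7069186), which codes for an accessory subunit homologous to human NDUFB4, had 185, 194 and 202 CPM (lowest, median and highest) in vitamin D libraries and 210, 248 and 279 CPM in vehicle libraries. It fell by 0.33 on the log2 scale (edgeR adjusted p = 0.027, SE 0.07). The accessory subunit gene nduf-5 (Y54E10BL.5; I, 3001406 to 3002847), the homolog of NDUFS5, had 118, 121 and 131 CPM with vitamin D and 133, 157 and 171 CPM with vehicle. It fell by 0.32 (edgeR adjusted p = 0.027, SE 0.07). In both genes the groups did not overlap, and vehicle libraries 5 and 6 held the lowest vehicle values. Both calls were lost without any 1 of several libraries: nuo-6 without vehicle library 1 or 2 or vitamin D library 1, 2, 3, 4 or 6, and nduf-5 without vehicle library 1, 2 or 4 or vitamin D library 1, 2, 4 or 6. With the length trend removed the values were -0.18 for nuo-6 (edgeR adjusted p = 0.359) and -0.0051 for nduf-5 (edgeR adjusted p = 0.981).

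The measured genes of the catalytic core of complex I were among the 31 of 37 members that did not pass. Of all tested genes 3.66% passed in either direction. Exon lengths were 1605 and 2444 bases for nuo-1 and nuo-5, against 650 and 434 for nuo-6 and nduf-5. Whether role or length went with the calls was not tested. The gene nuo-1, for the NADH-binding flavoprotein, had 549, 574 and 614 CPM with vitamin D and 577, 602 and 685 CPM with vehicle, a log2 fold change of -0.09 (95% interval -0.21 to 0.03). Its partner nuo-5, for the largest iron-sulfur subunit, had 330, 335 and 365 CPM with vitamin D and 304, 331 and 358 CPM with vehicle, and was the only complex I gene with a positive value (0.03, 95% interval -0.08 to 0.13). The core subunit genes nuo-2 (NDUFS3) and nduf-7 (NDUFS7) both had log2 fold changes of -0.11.

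Among the remaining genes of complex I, lpd-5, the homolog of NDUFS4, had 174, 181 and 186 CPM with vitamin D and 176, 201 and 214 CPM with vehicle (log2 fold change -0.14, edgeR adjusted p = 0.199, SE 0.05). The gene nduf-6, the homolog of NDUFS6, had a log2 fold change of -0.24 (edgeR adjusted p = 0.0861, SE 0.07), and its groups overlapped in only their margins, with 104 to 116 CPM on vitamin D and 113 to 146 CPM on vehicle. The genes nduf-11 and nuo-3 had values of -0.12 and -0.13. Of the exon bases of nuo-3, 72.6% are shared with Y57G11C.1147 on the same strand, so its level is uncertain. The exons of nuo-6 and asg-1 share 14 and 18 bases with a gene on the opposite strand. Per kb of exon, the mean level over 12 libraries ran from 138 CPM for nuo-5 to 372 CPM for nuo-1, with nuo-6 second at 337 CPM.

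Complex II, the succinate dehydrogenase shared with the citric acid cycle, had 0 of 4 genes past the threshold, beside 3.66% of all tested genes. The flavoprotein paralogs sdha-1 (X) and sdha-2 (I) had log2 fold changes of 0.08 (95% interval -0.21 to 0.38) and 0.01 (-0.23 to 0.24). Levels of sdha-1 were 183, 212 and 234 CPM with vitamin D and 161, 177 and 269 CPM with vehicle. Vehicle libraries 2 and 3, at 250 and 269 CPM, lay above all vitamin D libraries, library 1, at 192 CPM, within their range, and libraries 4 to 6, at 161 to 163 CPM, below it. Without vehicle libraries 2 and 3, sdha-1 passed as higher, with a log2 fold change of 0.33 (edgeR adjusted p = 0.0112). In that fit 2036 of 13723 tested genes passed as higher. The iron-sulfur subunit gene sdhb-1 had 285, 306 and 313 CPM with vitamin D and 280, 289 and 366 CPM with vehicle. The membrane anchor gene sdhd-1, the shortest of the 4, had 115, 118 and 127 CPM with vitamin D and 123, 147 and 169 CPM with vehicle, a log2 fold change of -0.28 (edgeR adjusted p = 0.0756, SE 0.08).

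Complex III, the cytochrome bc1 complex, had 1 of 5 genes lower, 0 higher and 4 that did not pass, beside 1.90% of all tested genes lower. The gene ucr-11 (F57B10.14; I, 6552834 to 6553379), for a small subunit, has 281 bases of exon, the fewest of the 37 members. It had 63.2, 70.5 and 78.5 CPM in vitamin D libraries and 87.3, 146 and 168 CPM in vehicle libraries, and fell by 0.92 on the log2 scale (edgeR adjusted p = 0.0106, SE 0.17). The groups did not overlap. Vehicle libraries 1 to 4 held 133 to 168 CPM, well above libraries 5 and 6 at 90.4 and 87.3 CPM. The call held without any 1 library, and with the length trend removed the value was -0.41 (edgeR adjusted p = 0.198).

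The catalytic genes of complex III were also among the 31 of 37 members that did not pass. Exon lengths were 986 and 1455 bases for isp-1 and cyc-1, against 281 for ucr-11, and role and length were not tested apart. The Rieske iron-sulfur protein gene isp-1 had 555, 582 and 611 CPM with vitamin D and 581, 620 and 716 CPM with vehicle (log2 fold change -0.14, edgeR adjusted p = 0.294, SE 0.06). The cytochrome c1 gene cyc-1 had 578, 595 and 648 CPM with vitamin D and 557, 593 and 701 CPM with vehicle, with -0.02 and a 95% interval of -0.16 to 0.12. The core protein paralogs ucr-2.1 and ucr-2.2, both on the X chromosome, had -0.08 and -0.01. Per kb of exon isp-1 was the most abundant of the 5 at 620 CPM and ucr-2.2 the least at 112 CPM.

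Cytochrome c itself, from cyc-2.1 (E04A4.7; IV, 4747895 to 4749012), had 653, 676 and 754 CPM with vitamin D and 703, 855 and 1012 CPM with vehicle. Its log2 fold change was -0.31 (edgeR adjusted p = 0.104, SE 0.10) and did not pass. Vehicle libraries 2 and 3 held 1003 and 1012 CPM, while vehicle libraries 5 and 6, with 733 and 703 CPM, lay within the vitamin D range.

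Complex IV, cytochrome c oxidase, had 0 of 4 measured subunit genes past the threshold, beside 3.66% of all tested genes. Its median log2 fold change of -0.36 was the lowest of the complexes with more than 1 member. The short subunit genes cox-6C and cox-7C had the most negative values. Levels of cox-7C were 157, 173 and 180 CPM with vitamin D and 171, 240 and 288 CPM with vehicle (log2 fold change -0.46, edgeR adjusted p = 0.0522, SE 0.12), and only vehicle library 6 lay within the vitamin D range. Levels of cox-6C were 170, 179 and 194 CPM with vitamin D and 189, 252 and 318 CPM with vehicle (-0.48, edgeR adjusted p = 0.0614, SE 0.13). Both passed with total counts and without vehicle libraries 2 and 3, where 1.66% and 13.8% of all tested genes were lower. With the length trend removed their values were -0.12 and -0.09 for cox-6C and cox-7C. The gene cox-5B had 433, 443 and 455 CPM with vitamin D and 449, 543 and 592 CPM with vehicle (-0.26, edgeR adjusted p = 0.0661, SE 0.07). The longest, cox-4, had 511, 530 and 558 CPM with vitamin D and 511, 562 and 637 CPM with vehicle (-0.10, 95% interval -0.24 to 0.03).

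Among 5 genes that build complex IV, 1 was lower, 0 were higher and 4 did not pass, beside 1.90% of all tested genes lower. The gene cox-19 (F45H11.5; I, 10381082 to 10382025), for a copper-related factor of the intermembrane space, had 15.05, 16.5 and 17.2 CPM in vitamin D libraries and 20.6, 22.6 and 24.6 CPM in vehicle libraries. It fell by 0.48 on the log2 scale (edgeR adjusted p = 0.00341, SE 0.07), the smallest p-value of the members. The groups did not overlap, and each was tight, with a coefficient of variation of 5.48% with vitamin D and 7.17% with vehicle. The call held without any 1 library. It also held without vehicle libraries 2 and 3, where 13.8% of all tested genes were lower. With the length trend removed the value was -0.14 (edgeR adjusted p = 0.562). The haem synthesis genes cox-10 and cox-15 had positive values, 0.17 (95% interval -0.04 to 0.37) and 0.09 (-0.06 to 0.23). The copper delivery gene cox-11 and the membrane insertion gene cox-18 had -0.09 and 0.07. Per kb of exon the assembly factors ran from 18.7 to 66.0 CPM and the subunits of complex IV from 520 to 645 CPM.

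The ATP synthase had 2 of 7 genes lower, 0 higher and 5 that did not pass, with a median log2 fold change of -0.24. Of all tested genes 1.90% were lower, and 10.5% of those with under 500 bases of exon. The lower genes, hpo-18 and asg-1, have 290 and 476 bases. The gene hpo-18 (F32D1.2; V, 4346089 to 4346425), for the epsilon subunit of the rotor stalk, had 107, 117 and 121 CPM in vitamin D libraries and 131, 235 and 275 CPM in vehicle libraries. It fell by 0.85 on the log2 scale (edgeR adjusted p = 0.0248, SE 0.18). Vehicle libraries 1 to 4 stood at 216 to 275 CPM, whereas libraries 5 and 6 both stood at 131 CPM, just above the highest vitamin D library. The call was lost without vehicle library 1 or 4 or vitamin D library 1, 2, 3, 4 or 6. The gene asg-1 (K07A12.3; I, 8692946 to 8693468), for subunit g of the membrane part, had 152, 158 and 174 CPM with vitamin D and 186, 198 and 230 CPM with vehicle. It fell by 0.36 (edgeR adjusted p = 0.00939, SE 0.06), its groups did not overlap, and the call held without any 1 library. In asg-1 vehicle libraries 1 and 4 were the highest, not libraries 2 and 3. With the length trend removed the values were -0.35 for hpo-18 (edgeR adjusted p = 0.376) and -0.09 for asg-1 (edgeR adjusted p = 0.576).

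The second subunit g gene, asg-2, had 237, 283 and 291 CPM with vitamin D and 268, 347 and 435 CPM with vehicle, a log2 fold change of -0.34 close to that of asg-1 but with an SE of 0.13 (edgeR adjusted p = 0.177). The stalk genes atp-4 (coupling factor), atp-5 (subunit d) and atp-3 (the oligomycin sensitivity protein) had -0.24, -0.13 and -0.10, and none passed. The alpha subunit gene atp-1, which forms the catalytic head with the beta subunit, had 2890, 2966 and 3179 CPM with vitamin D and 2553, 2706 and 3514 CPM with vehicle. Its log2 fold change was 0.04 (95% interval -0.14 to 0.23). Vehicle libraries 2 and 3 held 3386 and 3514 CPM, above all vitamin D libraries, and the other vehicle libraries held 2553 to 2780 CPM, below all of them. Without vehicle libraries 2 and 3, atp-1 passed as higher, with 0.19 (edgeR adjusted p = 0.0102), as did 2036 of 13723 tested genes in that fit. Per kb of exon atp-1 was the most abundant member at 1457 CPM, followed by cyc-2.1 at 1416 CPM and atp-5 at 1265 CPM, and asg-1 was the lowest of the ATP synthase at 382 CPM. These are means over 12 libraries, and the order of atp-1 and cyc-2.1 differed between the groups. With vitamin D their means per kb were 1479 and 1265 CPM, and with vehicle 1435 and 1567 CPM. The spread of vehicle libraries was 14.6% of the mean for atp-1 and 15.6% for cyc-2.1.

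**Figure D3:**
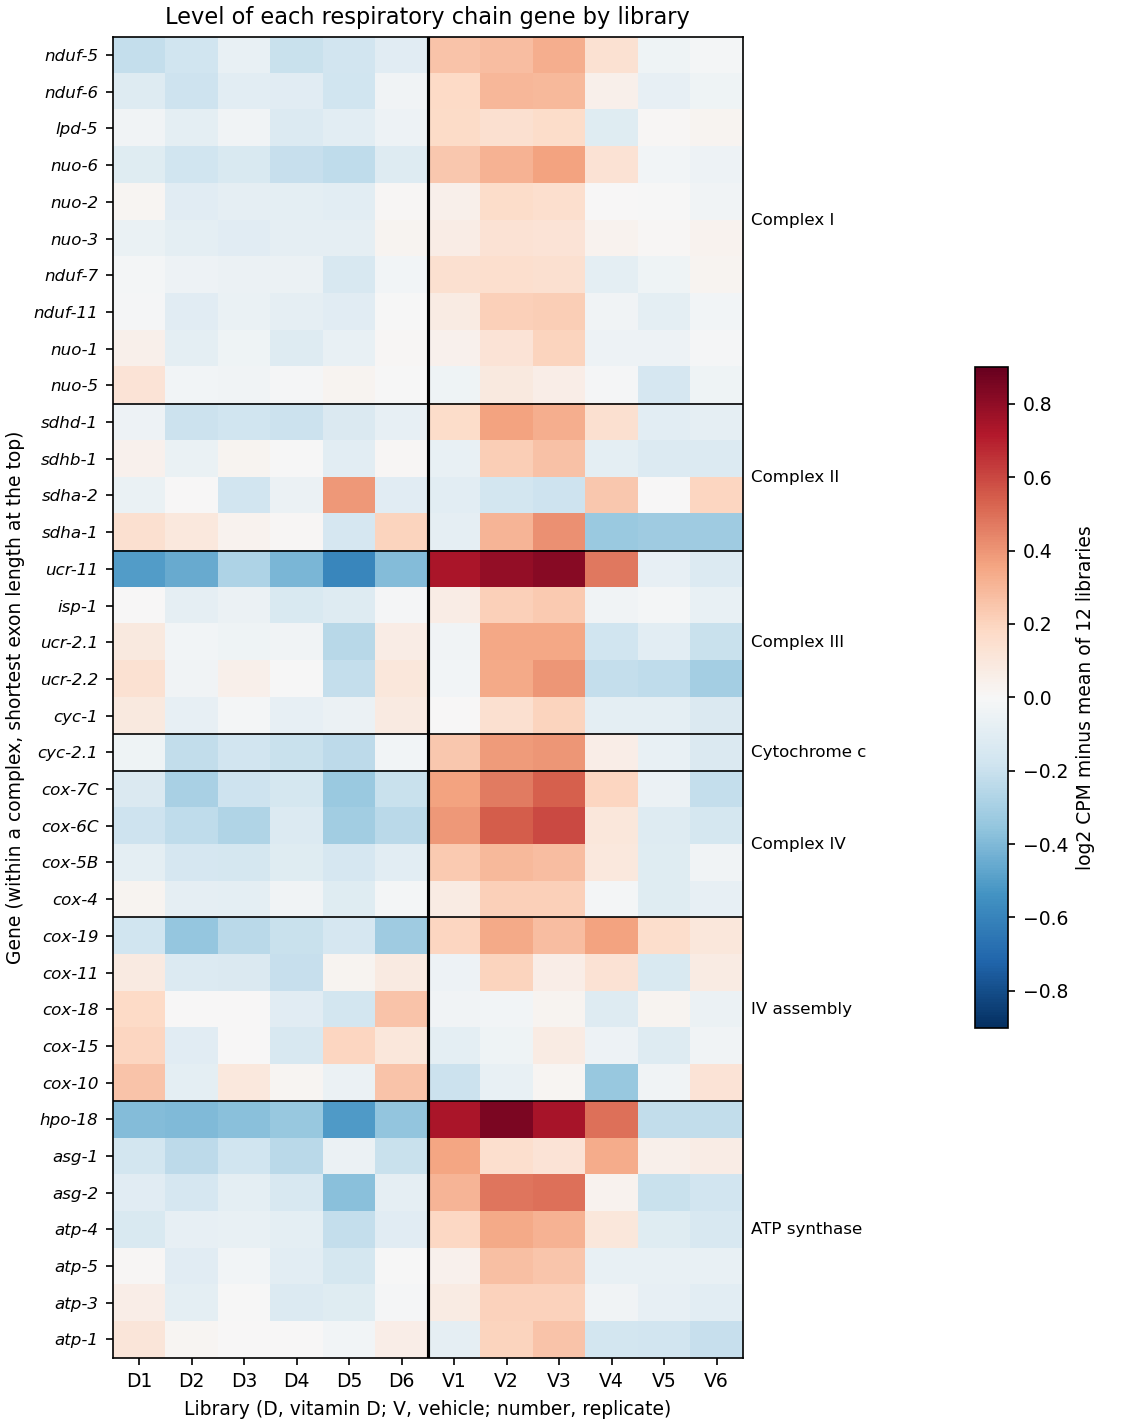
Log2 CPM of 36 of the 37 genes (rows, by complex, shortest at the top of each block) minus its mean over 12 libraries, in 6 vitamin D libraries (D, left) and 6 vehicle libraries (V, right); red is above and blue below the mean. Vehicle libraries 1 to 4 are the reddest in short genes such as ucr-11 and hpo-18, and libraries 2 and 3 are red in most genes but not in sdha-2.

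The values of the members followed exon length across complexes. The 8 members with under 500 bases of exon had a median log2 fold change of -0.47, and 5 of them were lower. In the same length range all 988 tested genes had a median of -0.34, and 10.5% were lower. The 12 members with 500 to under 1000 bases had a median of -0.19, against -0.12 for 3068 tested genes. Of these members 1, nuo-6, was lower, beside 3.03% of the tested genes in that range. The 13 members with 1000 to under 2000 bases had -0.06, against -0.00085 for 5824 genes, and the 4 members with 2000 bases or more had 0.04, against 0.09 for 3267 genes. No member with 1000 bases or more passed. The median exon length was 945 bases for the members and 1339 bases for all tested genes, and libraries were made with an average insert of 200 bp.

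**Figure D4:**
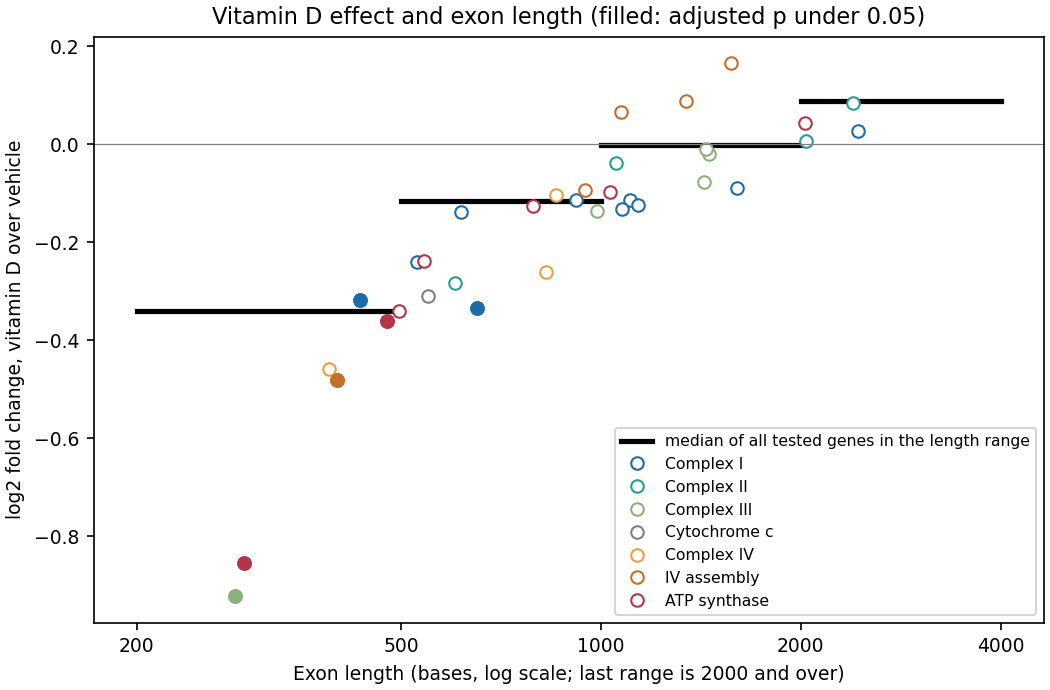
Log2 fold change of vitamin D over vehicle (y) against exon length in bases on a log axis (x) for 36 of the 37 genes, coloured by complex, with filled points past the threshold; black bars are medians of all tested genes in 4 length ranges. Both the points and the bars are lowest at the left, where all tested genes under 500 bases had a median of -0.34.

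Removing the per-library trend on exon length, and adding the sperm score as a covariate in the same fit, left 5 members lower and 0 higher: ucr-11 (-0.46, edgeR adjusted p = 0.00123), hpo-18 (-0.40, edgeR adjusted p = 0.0177), nuo-6 (-0.21, edgeR adjusted p = 0.0108), cox-6C (-0.17, edgeR adjusted p = 0.0389) and cox-5B (-0.19, edgeR adjusted p = 0.031). In that fit 2.27% of all tested genes were lower. Of the 6 genes lower with TMM factors alone, 3 were shared with this set, and cox-19, asg-1 and nduf-5 had -0.14, -0.08 and -0.03.

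Vehicle libraries differed among themselves more than vitamin D libraries did in nearly every member. The coefficient of variation was larger with vehicle in 33 of 37 members, with a median of 4.57% in vitamin D libraries and 11.3% in vehicle libraries. Over all tested genes the medians were 15.2% and 20.1%, and the value was larger with vehicle in 62.6% of genes. The exceptions among the members were sdha-2, cox-11, cox-15 and cox-18. In 29 of 37 members vehicle libraries 2 and 3, those with low sperm scores, were the 2 highest of the vehicle libraries, a pattern found in 33.6% of all tested genes, and sdha-2 was the only member in which they were the 2 lowest. In 22 of 37 members vehicle libraries 5 and 6 were the 2 lowest, against 10.2% of all tested genes.

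Summed over all 37 members, vitamin D libraries held 12649, 13077 and 13882 CPM (lowest, median and highest) and vehicle libraries 12732, 13985 and 16567 CPM. Vehicle libraries 2 and 3 held the highest sums, 16327 and 16567 CPM, and libraries 5 and 6 the lowest vehicle sums, 12786 and 12732 CPM, so the groups overlapped. The ATP synthase made up the largest part, with 5388 to 5945 CPM in vitamin D libraries and 5209 to 6999 CPM in vehicle libraries. These sums are a description with no test. Without vehicle libraries 2 and 3, 8 members were lower and 2 higher, beside 13.8% of 13723 tested genes lower and 2036 genes higher.

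Paralog pairs were compared within each library by the share that 1 gene held of the counts per kb of both, for 4 pairs in which both genes had counts. The share of sdha-1 in sdha-1 and sdha-2 was 58.5% ± 5.19 with vitamin D and 56.5% ± 8.38 with vehicle (SD, n = 6 each, exact permutation p = 0.613, adjusted p = 0.708 over 4 pairs). It was 65.3% and 67.2% in vehicle libraries 2 and 3, above all other libraries, and 47.7% to 57.8% in the other vehicle libraries. The share of asg-1 in asg-1 and asg-2 was 37.6% ± 2.85 with vitamin D and 38.4% ± 4.86 with vehicle (SD, n = 6 each, exact permutation p = 0.708, adjusted p = 0.708). Here vehicle libraries 2 and 3, at 32.7% and 32.0%, were the lowest of all 12 libraries. In both pairs the gene on the X chromosome, sdha-1 or asg-2, took its highest share in these 2 libraries.

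For cytochrome c, the share of cyc-2.1 in cyc-2.1 and cyc-2.2, the second cytochrome c gene, was 91.4% ± 1.64 with vitamin D and 90.7% ± 4.04 with vehicle (SD, n = 6 each, exact permutation p = 0.706, adjusted p = 0.708). It reached 95.6% and 96.1% in vehicle libraries 2 and 3 and 86.9% to 89.6% in the other vehicle libraries. Without these 2 vehicle libraries the share was 3.16 percentage points higher with vitamin D (exact permutation, adjusted p = 0.0381). They held the highest shares of all libraries, so leaving them out raises the difference by itself, and no conclusion is drawn from that p-value. The share of ucr-2.1 in ucr-2.1 and ucr-2.2 was 61.2% ± 0.503 with vitamin D and 62.5% ± 1.12 with vehicle (SD, n = 6 each, exact permutation p = 0.0281, adjusted p = 0.113), a difference of -1.26 percentage points that did not pass. Without vehicle libraries 2 and 3 it was -1.73 points and without vehicle library 3 alone -1.54 points, with exact permutation adjusted p = 0.0381 and 0.0346. Library 3 held the lowest vehicle share, 61.1%, so leaving it out widens the difference by itself. How reads shared between similar paralogs were counted is not known from these sources, so the shares are uncertain to that extent.

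**Figure D5:**
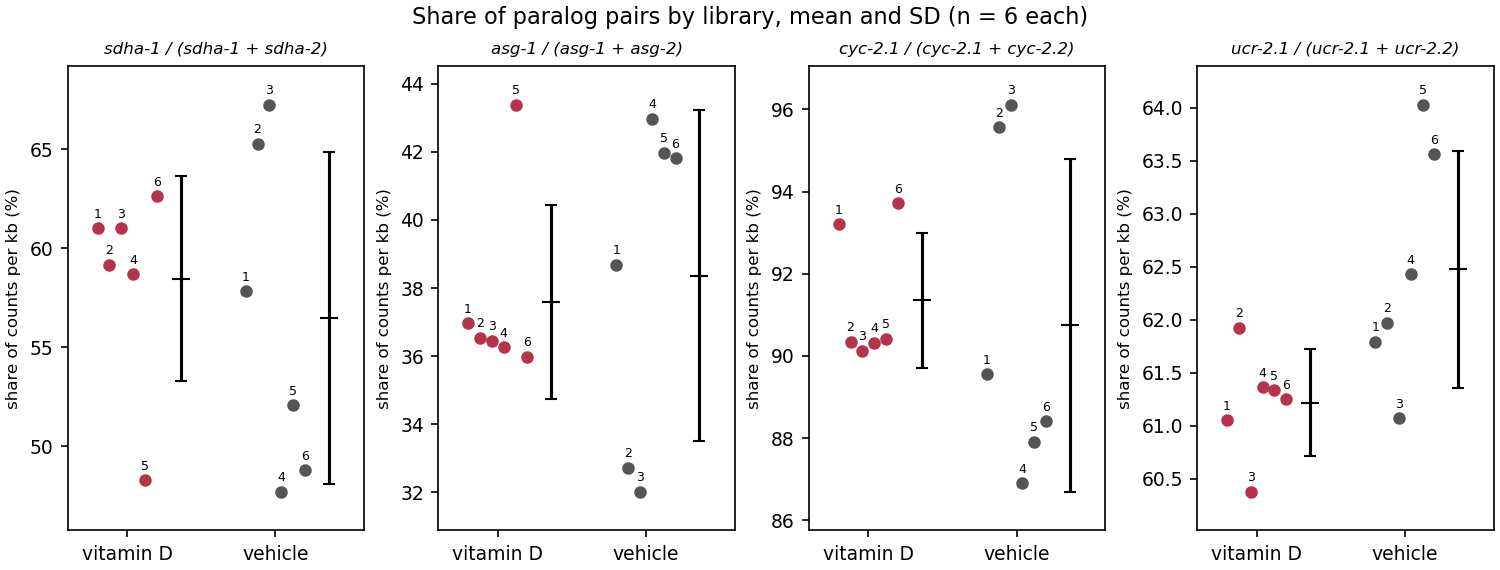
Share in percent (y) of the first gene of each of 4 paralog pairs in the counts per kb of both, in 6 vitamin D libraries (red, left) and 6 vehicle libraries (grey, right), numbered by replicate, with mean and SD in black. Vehicle libraries 2 and 3 stand at one end of the first 3 panels, with 65.3% and 67.2% for sdha-1, 32.7% and 32.0% for asg-1, and 95.6% and 96.1% for cyc-2.1.

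Genes of pathways that feed the chain were called at counts near the share of all tested genes, 3.66% in either direction, so that lists of this length would hold few calls. Of 19 tested genes of the citric acid cycle and pyruvate dehydrogenase, none passed in either direction, with a median log2 fold change of 0.03. Values ran from -0.18 for the malate dehydrogenase gene mdh-1 to 0.36 for the isocitrate dehydrogenase gene idh-1, and the 2-oxoglutarate dehydrogenase gene ogdh-1 had 0.13 (edgeR adjusted p = 0.223, SE 0.05). None of 4 tested ubiquinone synthesis genes passed (median 0.01), and none of 16 glycolysis genes (median -0.03), among them ldh-1 for lactate dehydrogenase at -0.07 and the enolase gene enol-1 at -0.07.

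Among 13 tested assembly and inhibitor genes outside the rule, 1 rose and 0 fell. The riser was lonp-1, for the mitochondrial Lon protease, with 163 ± 13.4 CPM with vitamin D and 140 ± 4.57 CPM with vehicle (SD, n = 6 each), a log2 fold change of 0.22 (edgeR adjusted p = 0.0481, SE 0.06). This p-value is close to the threshold. The gene has 3059 bases of exon, and tested genes with 2000 bases or more had a median of 0.09, with 1.87% higher. The ATP synthase inhibitor gene mai-2 had -0.27 (edgeR adjusted p = 0.11, SE 0.09). Of 11 tested carriers and side entries of electrons 1 fell and 0 rose. It was gpdh-1, a glycerol-3-phosphate dehydrogenase gene, with 14.1 ± 7.97 CPM with vitamin D and 33.6 ± 5.82 CPM with vehicle (SD, n = 6 each), which fell by 1.25 (edgeR adjusted p = 0.0435, SE 0.30). Vitamin D library 5, at 29.2 CPM, lay within the vehicle range of 29.0 to 42.9 CPM, and the other vitamin D libraries lay below it.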

How the data were processed

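The authors deposited raw read counts per gene for 12 libraries and a table of CPM values. Each deposited CPM value equalled its count over the library total within 2.91e-11, so only the counts were tested. The submitters' processing notes name edgeR 3.12.1; the aligner, counter, build and strand setting were not given in these sources. Per the labels, 50 bp paired reads came from a HiSeq 2000.

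Sequence names were matched to WBcel235 (Ensembl release 115): 27187 of 27928 rows matched 1 gene, 738 none and 3 several. Exon length is the union of annotated exons. Genes passing filterByExpr (minimum count 10, minimum total 15) were fitted with edgeR 4.0.16 in R 4.3.3 (TMM factors, treatment as the only term, robust quasi-likelihood) and adjusted by Benjamini-Hochberg over 13460 genes. CPM in the text is TMM-scaled. Paralog shares used exact two-sided permutation tests over libraries (SciPy 1.17.1). Alternatives included DESeq2 1.42.0 and limma 3.58.1 voom, a replicate block, the length trend (lowess, span 0.3, as an offset) and the sperm score. The fits were tested on simulated data. Libraries of a group differed beyond sampling noise (lowest chi-square per degree of freedom 7.72), but some were much closer than others. Vehicle libraries 5 and 6 had 7.72 and libraries 2 and 3 had 9.32, against 352 for libraries 3 and 4. Vitamin D libraries 2, 3 and 4 had 8.73 to 14.3 between them, against 161 for libraries 2 and 5. Whether close libraries are less independent than the others was not tested.

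The members, lists and alternatives were chosen with earlier results of these data known. Named were all members past the threshold or with groups apart, each complex's extremes in level and fold change, known mutant genes and paralogs, and genes of side lists past the threshold. The other members, and mdh-1, idh-1, ogdh-1, ldh-1, enol-1 and mai-2, were named after their values were seen. Results of 1 member are not reported here by name, and it is left out of the figures that show all members, though it is part of all counts. Side lists covered the citric acid cycle, ubiquinone synthesis, outside assembly factors, carriers, glycolysis, and sperm, germline, muscle, intestine, pharynx, neuron and hypodermis markers.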

Additional observations from a re-analysis of the deposited data

Results flagged for a closer look

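In 8 of 96 sets of 6 libraries, 1 library lay far from the others by Dixon's test at the 95% level, which chance does in about 1 of 20 sets. Vitamin D library 5 was the one apart in 6 of the 8. It was lowest for nduf-7 (303 CPM, next 322), asg-2 (237 CPM, next 277) and hpo-18 (107 CPM, next 116) and highest for sdha-2 (166 CPM, next 127). Its share of sdha-1 in sdha-1 and sdha-2 was the lowest, 48.3% with the next at 58.7%, and its share of asg-1 in asg-1 and asg-2 the highest, 43.4% with the next at 37.0%. Its sperm score was also the highest of the vitamin D libraries, 0.60 against -0.46 to -0.09, and the part of this in those values was not tested. Vitamin D library 6 was highest for nuo-3 (288 CPM, next 272) and vitamin D library 1 for nuo-5 (365 CPM, next 342). Without vitamin D library 5 the same 6 members were lower.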

How the results depend on the processing

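The 6 lower members became 13 with DESeq2's Wald test and 22 with the sperm score as a covariate, all 6 among them each time. They became 0 with the length trend removed and 0 with a replicate block. Of all tested genes, 4.58%, 5.69%, 0.468% and 0.238% were lower in these fits, in that order, against 1.90% in the main fit. Leaving out 1 library at a time gave 3 to 11 lower members and 0 higher (3 without vehicle library 1 or vitamin D library 1, 2, 4 or 6, 10 and 11 without vehicle libraries 6 and 5). Of all tested genes 0.804% to 2.35% were lower in the fits without 1 library. The count of higher members was 2 without vehicle libraries 2 and 3, beside 2036 of 13723 tested genes higher. The 492 genes called in all became 1167 with DESeq2, 136 with the block, 252 with the length trend removed, 1568 with the sperm score, 927 with both and 3924 without vehicle libraries 2 and 3, and 260 to 625 leaving out 1 library. DESeq2 size factors (7 lower), total counts (8), no filter (6) and voom (6) stayed within 1.5 times. Of all tested genes 1.95%, 1.66%, 0.91% and 1.72% were lower in these fits, in that order. Paralog share differences ran from 0.223 to 4.13 points for sdha-1, -2.04 to 0.152 for asg-1, -0.159 to 1.68 for cyc-2.1 and -1.54 to -0.947 for ucr-2.1 when 1 library was left out. Without vehicle libraries 2 and 3 those of cyc-2.1 and ucr-2.1 passed at 3.16 and -1.73. Leaving these libraries out removes the highest cyc-2.1 shares and the lowest vehicle ucr-2.1 share, so the passing cannot decide whether the shares differed. Of 814 fold changes of members under alternatives, 36 lost and 41 gained a call, and 31 uncalled ones changed sign. Libraries shared only a number across treatments: correlations of same-numbered libraries ran from -0.41 to 0.44, and 2 of 6 vitamin D libraries correlated best with their own number, so the block result is given only here. The cause of these changes was not tested. Counts per member were at least 527 in each library, and counting error is a larger part of the spread for the least abundant members, such as cox-19, than for the others.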

Other observations

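Marker lists of tissues were measured in the same libraries. Body wall muscle markers had 2 of 11 tested genes higher, the myosin heavy chain gene unc-54 (0.24 on the log2 scale, edgeR adjusted p = 0.0326) and unc-89 (0.20, edgeR adjusted p = 0.0291), and 0 lower. Among all tested genes 3.66% passed in either direction. None passed among 23 sperm, 17 oocyte and germline, 10 intestine, 5 pharynx, 6 neuron and 6 hypodermis markers. Median log2 fold changes were -0.70 for sperm, -0.17 for oocyte and germline, -0.06 for muscle, -0.13 for intestine, 0.14 for pharynx, 0.18 for neuron and 0.06 for hypodermis. Summed muscle marker levels were 14882 to 16725 CPM with vitamin D and 14601 to 17118 CPM with vehicle, and summed sperm marker levels 1089 to 2262 CPM with vitamin D and 503 to 3552 CPM with vehicle.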
